A study of Mus musculus with 8 samples.

Results

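The epidermal growth factor (EGF) receptor family, also called the ErbB family, was described here by the 4 receptor genes Egfr, Erbb2, Erbb3 and Erbb4 and by 6 ligand genes of the epidermis, Areg, Btc, Ereg, Hbegf, Tgfa and Nrg1. These 10 genes were taken by symbol from the 24538 genes of the count files, and all 10 were also found among the 24453 genes of the table of FPKM values (fragment counts scaled to transcript length and library depth). All 10 were among the 15151 genes with enough counts to be tested. RNA was sequenced from cells of newborn mice, postnatal day 0, sorted from the epidermis in 4 groups of 2 libraries: Merkel cells and IFE cells of the paw, and the same cell types of back skin. IFE is an abbreviation that the labels leave unexplained. All 4 groups carried the same genotype, Atoh1-GFP, a green fluorescent protein (GFP) reporter of the Merkel cell transcription factor Atoh1, and the labels name no treatment. The sort took Merkel cells by GFP, EpCAM and the absence of Sca1, and IFE cells by EpCAM and Sca1 and the absence of GFP. Whether replicate libraries stem from different animals or from pooled skin is not in the labels, so the p-values cover the spread among libraries alone, which may be technical.

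ErbB receptors are membrane tyrosine kinases that work in pairs. A ligand bound outside the cell lets a receptor join another of the family, and the phosphorylated tails then recruit adaptors that feed the RAS to MAP kinase and PI3 kinase to AKT relays. EGFR binds EGF, amphiregulin (Areg), transforming growth factor alpha (Tgfa) and epigen (Epgn), while betacellulin (Btc), epiregulin (Ereg) and heparin-binding EGF-like growth factor (Hbegf) bind both EGFR and ERBB4. Neuregulins such as Nrg1 bind ERBB3 and ERBB4. ERBB2 has no known soluble ligand and acts as a partner of the others, and ERBB3 has little kinase activity of its own. In epidermis EGFR is best known in keratinocytes, where it drives proliferation, and Merkel cells are touch receptors that lie in the basal layer among them.

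The upstream sequences of the 3 receptor genes whose level differed between the cell types are shown first, since those genes carry the main result. Each is the 250 bases before the start of the gene as RefSeq places it on GRCm38.p6, read 5' to 3' on the strand of the gene. For Erbb2 the RefSeq start lies inside the gene as GENCODE places it, so the last bases of that window are within the GENCODE gene. Of the 10 genes, 6 had an entry in that table. Capitals mark matches, on either strand, to the E-box CANNTG or to the GC box GGGCGG.
Erbb4 (chr1:69108060-69108309, minus strand): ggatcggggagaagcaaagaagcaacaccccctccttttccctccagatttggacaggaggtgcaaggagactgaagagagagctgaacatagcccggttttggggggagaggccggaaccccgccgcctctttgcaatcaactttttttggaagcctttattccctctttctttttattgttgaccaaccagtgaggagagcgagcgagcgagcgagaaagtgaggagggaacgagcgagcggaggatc
Egfr (chr11:16751953-16752202, plus strand): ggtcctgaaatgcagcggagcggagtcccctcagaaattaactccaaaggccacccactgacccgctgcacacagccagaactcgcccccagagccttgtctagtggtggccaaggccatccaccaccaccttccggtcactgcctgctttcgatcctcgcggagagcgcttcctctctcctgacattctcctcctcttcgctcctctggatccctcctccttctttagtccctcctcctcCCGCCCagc
Erbb2 (chr11:98412234-98412483, plus strand): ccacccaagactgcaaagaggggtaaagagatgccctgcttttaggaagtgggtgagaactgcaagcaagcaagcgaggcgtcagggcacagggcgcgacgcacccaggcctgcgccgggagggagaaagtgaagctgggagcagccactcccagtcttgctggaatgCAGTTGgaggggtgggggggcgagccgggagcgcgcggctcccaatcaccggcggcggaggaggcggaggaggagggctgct

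The Erbb4 window held none of the 4 motifs searched on both strands, which were the E-box, the GC box, the TATA box TATAAA and the AP-1 motif TGANTCA. The Egfr window held 1 GC box, which starts 9 bases before the RefSeq start and reads on the opposite strand, and the Erbb2 window held 1 E-box, 82 bases before the RefSeq start. Among 32851 windows of the same length, 66.2% held the E-box, 32.7% the GC box, 12.4% TATAAA and 6.75% the AP-1 motif. The GC content was 54% for Erbb4, 60.8% for Egfr and 66% for Erbb2, against a median of 52.4% over all windows. CG dinucleotides numbered 12 for Erbb4, 11 for Egfr and 16 for Erbb2, with a median of 6 over all windows. These matches describe the letters of the windows only.

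The sorted cells carried the markers of their labels. The 7 Merkel cell markers (Atoh1, which the sort used, with Sox2, Isl1, Krt8, Krt18, Krt20 and Piezo2) summed to 2292 to 3379 CPM (counts per library after scaling by depth) in the 4 Merkel libraries and to 8.58 to 17.3 CPM in the 4 IFE libraries. The 7 basal keratinocyte markers, among them Krt5, Krt14 and Trp63, were all detected in every library and summed to 1073 to 3451 CPM in Merkel cells and 24060 to 40931 CPM in IFE cells. Of 7 suprabasal keratinocyte markers 6 were among the genes counted, and these summed to 412 to 5252 CPM in Merkel cells and 4599 to 10636 CPM in IFE cells. Total counts ran from 11139306 to 26195076 per library. In bulk RNA of sorted cells, fewer cells of a type and less RNA per cell cannot be told apart.

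Merkel cells differed from IFE cells in which ErbB receptors they carried. Erbb4, the neuregulin receptor, was found almost entirely in the Merkel libraries, with a fitted level 871 times that of IFE cells over both sites. Egfr, the EGF receptor, was 12.9-fold lower in Merkel cells, and Erbb2, the partner receptor without a ligand, was 6.48-fold lower. Erbb3, the other neuregulin receptor, did not pass the test between the cell types. In each of the 3 comparisons of Merkel with IFE cells (paw, back, and both sites) 3 of the 10 family genes passed an adjusted p of 0.05, with 1 higher and 2 lower in Merkel cells. Over all 15151 genes tested, 6.21% passed in paw (4.28% higher, 1.93% lower), 15.4% in back (7.99% higher, 7.45% lower) and 23.9% over both sites (12.5% higher, 11.3% lower). Adjusted p-values come from edgeR's quasi-likelihood F test, adjusted over all tested genes by Benjamini-Hochberg, and fold changes are Merkel over IFE on the log2 scale unless stated otherwise.

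Erbb4 (ENSMUSG00000062209.15) spans chr1:68032186-69108059 on the minus strand of GRCm38. It had 3904 and 3782 counts in the paw Merkel libraries, against 11 and 2 counts in the paw IFE libraries. Back skin gave 4909 and 4481 counts in the Merkel libraries, against 17 and 3 counts in the IFE libraries. Every Merkel library lay far above every IFE library. Scaled to length, its FPKM was 11.6 and 22.1 in paw Merkel cells, against 0.0114 and a listed 0 in paw IFE cells. In back Merkel cells it was 25.3 and 30.5 FPKM, against 0.0495 and 0.00657 FPKM in back IFE cells. By FPKM it ranked 4089 of 24453 genes in paw Merkel cells and 15847 in paw IFE cells, and 2589 in back Merkel cells and 14923 in back IFE cells. On the log2 scale the difference was 9.85 in paw (SE 0.93, adjusted p = 8.71e-05) and 9.68 in back (SE 0.91, adjusted p = 6.45e-05). Over both sites it was 9.77 (SE 0.65, adjusted p = 2.15e-06). The size of this fold rests on few IFE counts: without paw IFE library 1 the paw value was 11.30, and without back IFE library 1 the back value was 11.70. Without paw IFE library 2 it was 9.20 in paw and without back IFE library 2 it was 8.77 in back. On the log2(FPKM + 1) scale, which compresses low values, the log2 fold change was 4.09 in paw and 4.81 in back.

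Egfr (ENSMUSG00000020122.16, chr11:16752203-16918158, plus strand) went the other way. Its level was 69.3 and 53.3 CPM in the paw Merkel libraries, against 408 and 414 CPM in the paw IFE libraries. In back it had 5.40 and 22.7 CPM in the Merkel libraries, against 236 and 453 CPM in the IFE libraries. No Merkel library reached the lowest IFE library. The mean was 61.3 ± 11.3 CPM in paw Merkel cells and 411 ± 4.04 CPM in paw IFE cells, and 14.03 ± 12.2 CPM in back Merkel cells and 344 ± 154 CPM in back IFE cells (SD, n = 2 libraries each). Its log2 fold change was -2.74 in paw (SE 0.58, adjusted p = 0.0173), -4.62 in back (SE 0.64, adjusted p = 0.000718) and -3.68 over both sites (SE 0.43, adjusted p = 0.000132). The paw call was lost without paw Merkel library 2 (log2 fold change -2.57, adjusted p = 0.0741). The back value was -6.00 when back Merkel library 2 was left out and -4.08 when back IFE library 2 was, and over both sites it was -4.37 without back Merkel library 2.

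Erbb2 (ENSMUSG00000062312.5, chr11:98412470-98437716, plus strand) was also lower in Merkel cells. It had 43.2 and 12.3 CPM in the paw Merkel libraries, against 259 and 210 CPM in the paw IFE libraries. For back skin the values were 28.0 and 26.9 CPM in the Merkel libraries, against 129 and 145 CPM in the IFE libraries. The Merkel and IFE libraries did not overlap at either site. The log2 fold change was -3.07 in paw (SE 0.54, adjusted p = 0.00602), -2.32 in back (SE 0.53, adjusted p = 0.0127) and -2.70 over both sites (SE 0.38, adjusted p = 0.000444). Leaving out either back Merkel library ended the back call (adjusted p = 0.0617 for library 1 and 0.0765 for library 2). Without paw Merkel library 1 the paw value was -4.27 and the value over both sites -3.31, and without paw Merkel library 2 the paw value was -2.44. The basal keratinocyte markers moved with Egfr and Erbb2 between the cell types, as the sums given above show, and their part in these differences was not tested.

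Erbb3 (ENSMUSG00000018166.8, chr10:128567523-128589652, minus strand) did not pass in any of the 3 comparisons and had a wide spread between libraries. It had 74.3 and 11.9 CPM in the paw Merkel libraries, against 91.02 and 81.9 CPM in the paw IFE libraries. Its back values were 82.5 and 61.0 CPM in the Merkel libraries, against 77.3 and 36.4 CPM in the IFE libraries. Paw Merkel library 2 was the lowest of the 8 libraries, and the back groups overlapped. On the log2 scale the difference was -1.002 in paw (95% interval -2.54 to 0.54, adjusted p = 0.458) and 0.33 in back (-1.19 to 1.86, adjusted p = 0.789). Over both sites it was -0.33 (-1.41 to 0.74, adjusted p = 0.667), an interval that also holds differences of more than 2-fold. Without paw Merkel library 1 the paw value was -2.88 (adjusted p = 0.0124) and the value over both sites -1.28 (adjusted p = 0.0228), so the Erbb3 result depends on that library. Sox10, a transcription factor of melanocytes and Schwann cells, had 2.35 CPM in paw Merkel library 1 and 0 in paw Merkel library 2. It was 0.989 and 0.293 CPM in the back Merkel libraries and 0 in all 4 IFE libraries, and the part of such cells in the Erbb3 levels was not tested.

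**Figure D1:**
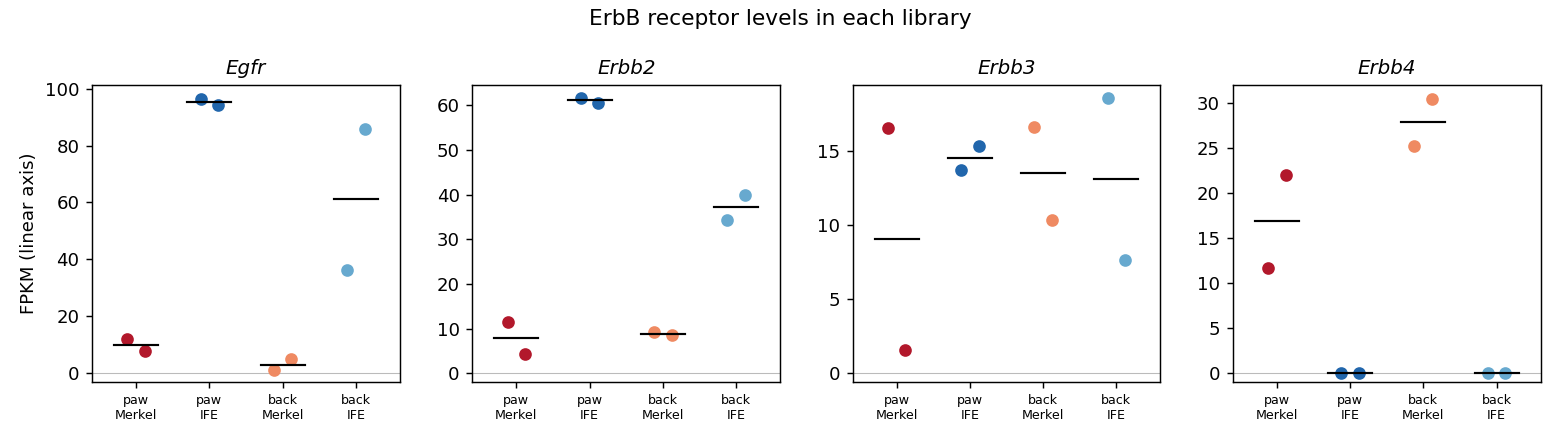
Level of Egfr, Erbb2, Erbb3 and Erbb4 in FPKM on linear axes in each of the 8 libraries, by group; points are libraries and lines are group means. Erbb4 lies between 11.6 and 30.5 FPKM in Merkel libraries and between 0 and 0.0495 FPKM in IFE libraries, while Egfr and Erbb2 are lower in every Merkel library than in any IFE library.

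Per length, the receptors stood in a different order in the 2 cell types. In paw IFE cells the order was Egfr, Erbb2, Erbb3 and Erbb4, with 95.4, 61.2, 14.5 and 0.00571 FPKM on average, and no pair of neighbours among these overlapped. Back IFE cells had the same order, with 61.1, 37.1, 13.1 and 0.0280 FPKM, but there the libraries of Egfr and Erbb2 overlapped. In back Merkel cells the order was Erbb4, Erbb3, Erbb2 and Egfr, with 27.9, 13.5, 8.81 and 2.99 FPKM, and no neighbours among these overlapped. In paw Merkel cells it was Erbb4, Egfr, Erbb3 and Erbb2, with 16.9, 10.0, 9.06 and 7.82 FPKM, and every pair of neighbours overlapped. The order within paw Merkel cells is therefore not resolved by these libraries.

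As a share of the summed FPKM of the 4 receptors, Erbb4 made up 22.5% and 61.6% in the paw Merkel libraries, against 0.00664% and 0% in the paw IFE libraries. In back skin its share was 48.5% and 56.2% in the Merkel libraries, against 0.0556% and 0.00492% in the IFE libraries. Egfr made up 23.4% and 22.2% in paw Merkel cells, against 56.1% and 55.4% in paw IFE cells. In back skin Egfr made up 2.05% and 9.06% in Merkel cells, against 40.6% and 64.3% in IFE cells. Erbb2 was the steadier share, with 11.8% to 22.1% over the 4 Merkel libraries and 30.0% to 38.4% over the 4 IFE libraries. The share of Erbb3 was 4.40% to 32.0% over the Merkel libraries and 5.70% to 20.9% over the IFE libraries, so it overlapped. The summed level of the 4 receptors was 35.8 to 54.3 FPKM in Merkel cells and 89.1 to 172 FPKM in IFE cells, without overlap.

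**Figure D2:**
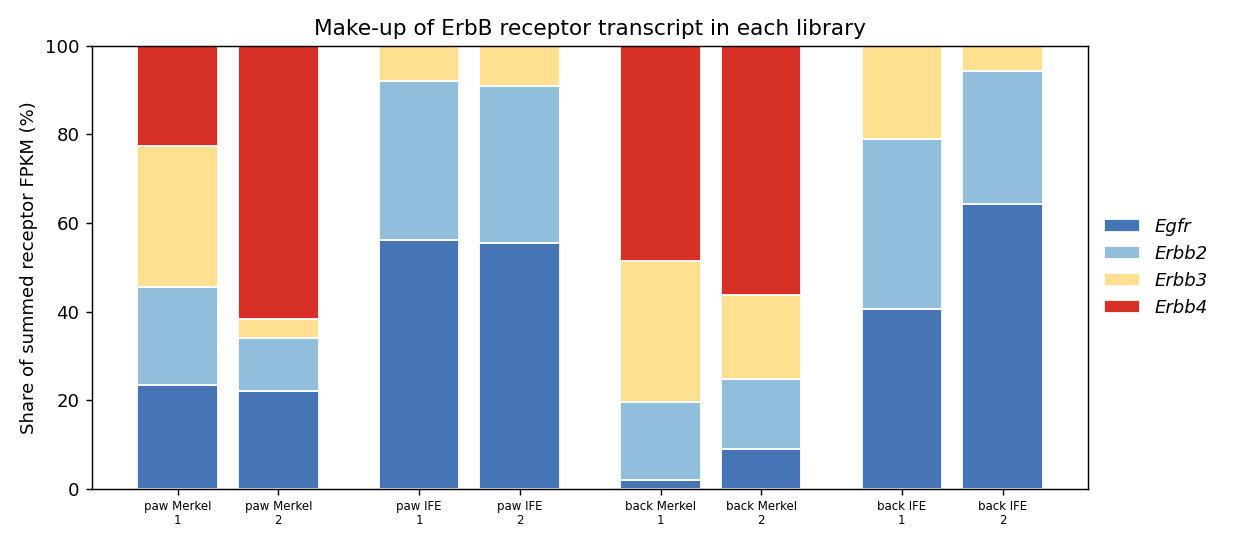
Share of each receptor gene in the summed FPKM of Egfr, Erbb2, Erbb3 and Erbb4 (percent), 1 bar per library. Erbb4 takes 22.5% to 61.6% of the sum in the Merkel libraries and at most 0.0556% in the IFE libraries.

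Between the skin sites no member passed the test. Over all genes 0.185% passed between paw and back Merkel cells, and 0% between paw and back IFE cells, where 643 of 15151 genes had an unadjusted p under 0.05 and DESeq2 called 91. Among the members an unadjusted p under 0.05 was met by 1 between the Merkel groups and by 0 between the IFE groups. Between the Merkel groups 1550 of all 15151 genes met it. The member with the lowest p was Egfr in Merkel cells. Paw Merkel cells had 69.3 and 53.3 CPM and back Merkel cells 5.40 and 22.7 CPM, which do not overlap (35.4% of all genes did not overlap between these groups; log2 fold change 2.13, SE 0.58, unadjusted p = 0.00336, adjusted p = 0.213). Of all genes between these groups, edgeR called 28, DESeq2 625 and edgeR with no filter on low counts 452. The DESeq2 Wald test called the Egfr difference (adjusted p = 0.034), and so did edgeR with no filter on low counts (adjusted p = 5.89e-05). Along with it, the basal keratinocyte markers summed to 3451 and 1860 CPM in the paw Merkel libraries and to 1073 and 1515 CPM in the back Merkel libraries, and the suprabasal markers to 5252 and 412 CPM in paw and 1936 and 1064 CPM in back. Their part in the Egfr difference was not tested.

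Erbb4 was 187 and 349 CPM in paw Merkel cells and 373 and 438 CPM in back Merkel cells (log2 fold change -0.60, 95% interval -1.94 to 0.74, adjusted p = 0.785). Erbb2 averaged 27.7 ± 21.9 CPM in paw Merkel cells and 27.4 ± 0.795 CPM in back Merkel cells (SD, n = 2 each; log2 fold change 0.02, 95% interval -1.08 to 1.13). In IFE cells Egfr had a log2 fold change of paw over back of 0.25 (95% interval -0.94 to 1.45) and Erbb2 of 0.78 (-0.32 to 1.88), both with an adjusted p of 1. For 4 of the 10 members the paw and back IFE libraries did not overlap, as for 40.4% of all genes. Whether the gap between Merkel and IFE cells differed between the sites was tested as an interaction, in which 0% of all genes and no member passed in edgeR (1365 genes and 1 member had an unadjusted p under 0.05, and DESeq2 called 301 genes and no member). For Egfr the paw log2 fold change exceeded the back one by 1.88 (95% interval 0.16 to 3.598, unadjusted p = 0.035, adjusted p = 0.536). For Erbb4 the difference was 0.17 (95% interval -2.01 to 2.35) and for Erbb2 -0.76 (-2.32 to 0.80).

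**Figure D3:**
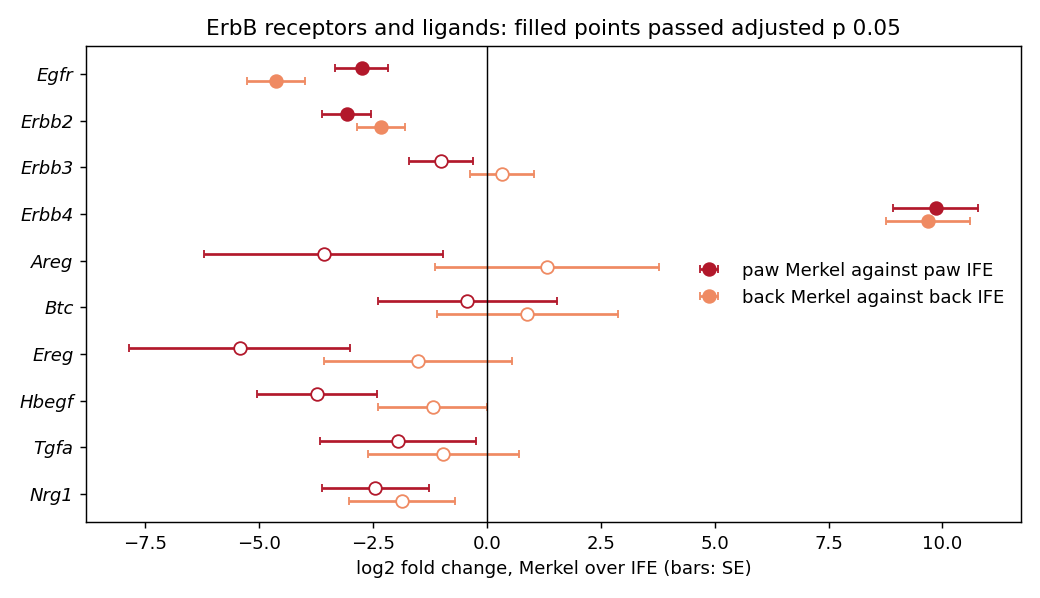
Log2 fold change of Merkel over IFE cells for the 10 family genes in paw and in back; bars show the SE and filled points passed an adjusted p of 0.05. Erbb4 stands at 9.85 and 9.68, Egfr and Erbb2 lie below 0, and the open points of the ligands have wide bars.

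None of the 6 listed ligands passed the test between Merkel and IFE cells at either site or over both. At an unadjusted p under 0.05 there were 2 in paw, 0 in back and 3 over both sites. Of all 15151 genes tested, 3201 in paw, 4627 in back and 5533 over both sites met that unadjusted threshold. The DESeq2 Wald test called Ereg and Hbegf lower in Merkel cells in paw, and Ereg, Hbegf and Nrg1 over both sites. DESeq2 also called more of all genes, 2364 in paw against 941 in edgeR and 5054 over both sites against 3617. The fold changes of the listed ligands were negative for 6 of 6 in paw, 4 of 6 in back and 5 of 6 over both sites. Their median log2 fold change was -3.01 in paw, -1.07 in back and -1.80 over both sites, against -0.04, -0.06 and -0.09 over all genes tested. Counting all 10 members, the Merkel and IFE libraries did not overlap for 8 in paw (1 above, 7 below), 4 in back and 3 over both sites. For all genes the share without overlap was 53.6% in paw, 61.9% in back and 27.7% over both sites.

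Hbegf, a ligand of EGFR and ERBB4 known from keratinocyte migration in wounds (ENSMUSG00000024486.6, chr18:36504927-36515805), was the most abundant listed ligand of IFE cells by mean FPKM. It had 56 and 24 counts in the paw Merkel libraries, against 311 and 1066 counts in the paw IFE libraries. In back skin it had 140 and 6 counts in the Merkel libraries, against 129 and 489 counts in the IFE libraries. The paw groups were apart, and back Merkel library 1 overlapped the IFE libraries. Its log2 fold change was -3.73 in paw (SE 1.31, adjusted p = 0.128), -1.19 in back (adjusted p = 0.539) and -2.46 over both sites (SE 0.88, adjusted p = 0.065). The call over both sites depended on the tool, since the DESeq2 Wald test gave an adjusted p of 0.0109 and edgeR without a filter 0.00547.

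Nrg1, neuregulin 1, a ligand of ERBB3 and ERBB4 (ENSMUSG00000062991.7, chr8:31814551-32884029), had 56 and 73 counts in the paw Merkel libraries, against 498 and 625 counts in the paw IFE libraries. Back skin gave 37 and 7 counts in the Merkel libraries, against 36 and 285 counts in the IFE libraries. The paw groups were apart and the back groups overlapped. Back Merkel cells had the highest mean Erbb4 and the lowest mean Nrg1 of the groups. Neither gene passed between paw and back Merkel cells in edgeR (adjusted p = 0.785 for Erbb4 and 0.71 for Nrg1), whose Nrg1 libraries overlapped. The log2 fold change was -2.44 in paw (SE 1.17, adjusted p = 0.26), -1.86 in back (adjusted p = 0.303) and -2.15 over both sites (SE 0.82, adjusted p = 0.0811). DESeq2 gave an adjusted p of 0.0157 over both sites. Of its exonic bases, 4.66% are shared with the gene Gm26578 on the other strand, and the strand setting of the counting is not given in the sources used here.

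Tgfa, an EGFR ligand made by keratinocytes (chr6:86195223-86275719), had 110 and 0 counts in the paw Merkel libraries, against 264 and 203 counts in the paw IFE libraries. In back it had 147 and 6 counts in the Merkel libraries, against 209 and 301 counts in the IFE libraries. At both sites the IFE libraries agreed closely, at 10.4 ± 0.522 CPM in paw and 11.4 ± 0.102 CPM in back (SD, n = 2 each), while the Merkel libraries were split. On the log2 scale the difference was -1.96 in paw (adjusted p = 0.568), -0.95 in back (adjusted p = 0.745) and -1.46 over both sites (adjusted p = 0.414). Without paw Merkel library 1 it was -10.53 in paw (adjusted p = 0.0366) and -5.75 over both sites (adjusted p = 0.0187), with 0 counts left in the paw Merkel group.

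Areg, Btc, Ereg and the unlisted ligand Epgn lie side by side on chromosome 5, in the order Epgn, Ereg, Areg and Btc. They span 376 kb (chr5:91027464-91402994), and these 4 are the only protein-coding genes the annotation places there. Areg, which binds EGFR, had 12 and 0 counts in the paw Merkel libraries, against 1 and 147 counts in the paw IFE libraries. For back skin the values were 10 and 1 counts in the Merkel libraries, against 2 and 6 counts in the IFE libraries. Only paw IFE library 2 held more than 12 counts, and Areg did not pass at either site (log2 fold change -3.58 in paw, adjusted p = 0.482, and 1.31 in back, adjusted p = 0.763).

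Ereg, which binds EGFR and ERBB4, had 8 and 0 counts in the paw Merkel libraries, against 82 and 303 counts in the paw IFE libraries. Its back values were 24 and 1 counts in the Merkel libraries, against 101 and 2 counts in the IFE libraries. The paw groups did not overlap and the back groups did. Its log2 fold change was -5.43 in paw (SE 2.43, adjusted p = 0.23) and -3.47 over both sites (SE 1.57, adjusted p = 0.135), and the value over both sites was -0.94 without back IFE library 1. Btc, which binds the same pair of receptors, had 103 and 0 counts in the paw Merkel libraries, against 24 and 116 counts in the paw IFE libraries. In back skin it had 7 and 113 counts in the Merkel libraries, against 41 and 105 counts in the IFE libraries. Its libraries varied more within groups than between them (log2 fold change 0.23 over both sites, 95% interval -2.83 to 3.29, adjusted p = 0.931).

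**Figure D4:**
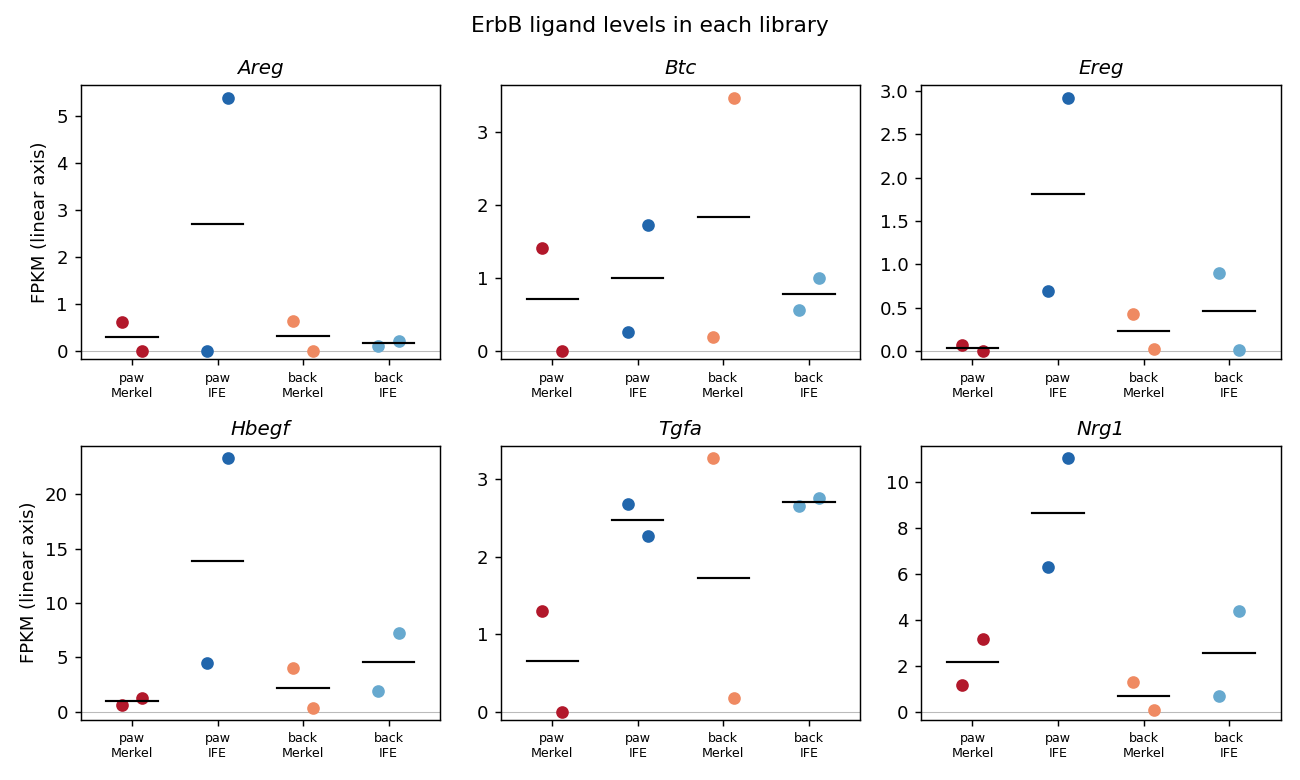
Level of the 6 listed ligand genes in FPKM on linear axes in each of the 8 libraries, by group; points are libraries and lines are group means. Libraries of a group are often far apart, and paw IFE library 2 holds the highest points for Hbegf (23.3 FPKM) and Areg (5.39 FPKM).

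Per length, the receptors and ligands were not cleanly ordered in any group. In paw Merkel cells the highest listed ligand by mean was Nrg1, with 1.16 and 3.17 FPKM, which overlapped Erbb3 (16.5 and 1.58 FPKM) and lay below the other receptors without overlap. In back Merkel cells it was Hbegf with 2.204 FPKM, whose libraries overlapped those of Egfr. In paw IFE cells Hbegf averaged 13.9 FPKM and Nrg1 8.67 FPKM, and Hbegf overlapped Erbb3. In back IFE cells Hbegf averaged 4.58 FPKM, Tgfa 2.70 FPKM and Nrg1 2.54 FPKM, with overlap among them. There Egfr, Erbb2 and Erbb3 lay above every listed ligand without overlap (lowest Erbb3 library 7.61 FPKM, highest Hbegf library 7.25 FPKM). Erbb4 had the lowest mean of the 10 genes in both IFE groups. Areg and Ereg were under 1 FPKM on average in both Merkel groups and in back IFE cells.

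The family has 5 further ligands outside the list, of which 4 could be tested. Of these 4, 0 passed in paw, 1 in back and 1 over both sites. Over all genes 6.21% passed in paw, 15.4% in back and 23.9% over both sites. Egf itself was higher in Merkel cells. It had 160 and 210 counts in the paw Merkel libraries, against 92 and 26 counts in the paw IFE libraries. Back skin gave 415 and 86 counts in the Merkel libraries, against 2 and 33 counts in the IFE libraries. The groups did not overlap by CPM at either site, although the level was low, at 1.44 to 7.43 FPKM over the Merkel libraries and 0 to 0.267 FPKM over the IFE libraries. The log2 fold change was 2.42 in paw (adjusted p = 0.313), 4.84 in back (SE 1.43, adjusted p = 0.0421) and 3.63 over both sites (SE 0.95, adjusted p = 0.018). The call over both sites did not hold when paw IFE library 2 (adjusted p = 0.0653) or back Merkel library 1 (0.0693) was left out, and that in back did not hold without the first back Merkel library (0.185), without the first back IFE library (0.169) and with a replicate block (0.0546). Of the exonic bases of Egf, 9.82% are shared with genes on the other strand.

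Epgn, an EGFR ligand, had 96 and 7 counts in the paw Merkel libraries, against 96 and 1039 counts in the paw IFE libraries, and did not pass (log2 fold change -3.38, adjusted p = 0.297). In back skin Epgn had 2 and 101 counts in the Merkel libraries, against 59 and 55 counts in the IFE libraries. Nrg4, an ERBB4 ligand, had 55 and 58 counts in the paw Merkel libraries, against 127 and 45 counts in the paw IFE libraries (log2 fold change 0.11, adjusted p = 0.981). Nrg2, a ligand of ERBB3 and ERBB4, had 0 counts in both paw Merkel libraries, against 52 and 36 counts in the paw IFE libraries, and did not pass (adjusted p = 0.193). Nrg3, an ERBB4 ligand of the nervous system, had 0 counts in all 8 libraries. None of the neuregulins tested was called higher in the Merkel cells that carried Erbb4.

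Many of these ligands are made as membrane proteins that sheddases cut free, and 9 sheddases and their iRhom partners were examined. None passed in paw (1 at an unadjusted p under 0.05, and 1 called by DESeq2), 1 in back and 3 over both sites in edgeR. Those called by edgeR were lower in Merkel cells, and the median log2 fold change of all 9 was -0.99 over both sites. In paw 3201 of all 15151 genes had an unadjusted p under 0.05, and DESeq2 called 2364. Over all genes 15.4% passed in back and 23.9% over both sites. The back count depended on the setting: it was 6 with DESeq2 (2 higher, 4 lower), and it also changed when single libraries were left out. DESeq2 called more of all genes in back as well, 4190 against 2338 in edgeR. Adam8, a metalloprotease best known from immune cells, had 24 and 17 counts in the paw Merkel libraries and 0 and 4 in the back Merkel libraries. In IFE cells it had 268 and 264 counts in paw and 349 and 183 counts in back (log2 fold change -4.60 over both sites, SE 1.06, adjusted p = 0.00912; -6.07 in back, adjusted p = 0.0271). Immune and Langerhans cell markers moved the same way, with 3 to 5 of 7 detected and 0.228 to 3.45 CPM in Merkel cells, against 5 to 7 of 7 and 23.8 to 1034 CPM in IFE cells, and their part in this difference was not tested. Rhbdf1, an iRhom (log2 fold change -2.41, SE 0.75, adjusted p = 0.0374), and Adam17, the main sheddase of EGFR ligands (-0.99, SE 0.31, adjusted p = 0.0378), also fell. Adam17 lies outside the naming rule and is given because it completes the count of 3. When single libraries were left out, the count over both sites ran from 1 to 4: Rhbdf1 missed the threshold in 6 of the 8 such fits and Adam17 in 5, and Adam8 passed in all 8. The back call of Adam8 was lost without the first back Merkel library (0.0861) or the first back IFE library (0.111).

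Of 18 feedback inhibitors 0 passed at either site alone in edgeR (3 in paw and 5 in back had an unadjusted p under 0.05). Of all 15151 genes tested, 3201 in paw and 4627 in back had such an unadjusted p. The median log2 fold change of the 18 over both sites was 0.09, where 3 passed as higher and 1 as lower in Merkel cells. Those 4 of 18 are near the 23.9% of all genes that passed over both sites. In back 5 were higher with DESeq2, 4 on log2 FPKM with either pseudocount and 3 with limma-trend. Of all genes in back, DESeq2 called 4190, log2 FPKM 3003 and 2833 with pseudocounts of 1 and 0.1, and limma-trend 3195. In paw 1 passed with DESeq2, which called 2364 of all genes there. At both sites the count also changed when single libraries were left out. Lrig2, of the LRIG family of receptor regulators, was higher (log2 fold change 1.36, SE 0.34, adjusted p = 0.0144), with 110 to 195 CPM in 3 of the Merkel libraries, 70.1 CPM in paw Merkel library 1 and 42.7 to 57.3 CPM in the IFE libraries. Dusp4, a phosphatase that acts on MAP kinases, was higher with 10.0 to 18.5 CPM in Merkel libraries and 0 to 3.55 CPM in IFE libraries (3.30, SE 1.09, adjusted p = 0.0476). Rnf41, a ubiquitin ligase known to target ERBB3, was the third (1.06, SE 0.35, adjusted p = 0.0481) and is named to complete the count. Spry1, an inhibitor of receptor tyrosine kinase signals, was lower (-3.21, SE 0.94, adjusted p = 0.0295), with 0.391 to 5.25 CPM in Merkel libraries and 6.35 to 38.2 CPM in IFE libraries. With single libraries left out the count over both sites was 1 to 4: Lrig2 passed in all 8 such fits, while Dusp4 missed the threshold in 6, Rnf41 in 8 and Spry1 in 4.

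Among 24 adaptors and kinases that relay the receptor signal, 2 were higher in paw Merkel cells. In back 5 were higher and 2 lower, and over both sites 5 were higher and 2 lower. The median log2 fold change of all 24 was 0.06 over both sites. Over all genes 6.21% passed in paw, 15.4% in back and 23.9% over both sites. Stat3, a transcription factor activated by receptor kinases and cytokines, had 723 and 656 CPM in paw Merkel cells, against 185 and 336 CPM in paw IFE cells. In back it had 860 and 813 CPM in Merkel cells, against 132 and 147 CPM in IFE cells. Every Merkel library was above every IFE library (log2 fold change 1.99 over both sites, SE 0.24, adjusted p = 0.000186), and the paw call alone did not hold when paw IFE library 1 was left out (adjusted p = 0.316).

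Gab2, a docking protein, had 40.1 and 52.5 CPM in paw Merkel cells, against 0.448 and 5.43 CPM in paw IFE cells, and 148 and 108 CPM in back Merkel cells, against 14.3 and 3.93 CPM in back IFE cells (over both sites 3.90 on the log2 scale, SE 0.70, adjusted p = 0.00214). Its paw call (adjusted p = 0.0372) was lost when paw Merkel library 2 (0.0616) or paw IFE library 1 (0.0574) was left out. Braf, a kinase of the MAP kinase relay, was higher over both sites (2.08, SE 0.32, adjusted p = 0.000856) and in back (2.68, adjusted p = 0.00299). Hras, a small GTPase of the same relay, was lower in Merkel cells (-2.68, SE 0.36, adjusted p = 0.000335). Hras had 31.5 and 18.3 CPM in paw Merkel cells, against 92.4 and 58.3 CPM in paw IFE cells, and 8.37 and 7.13 CPM in back Merkel cells, against 123 and 87.5 CPM in back IFE cells. Pik3r1, the regulatory subunit of PI3 kinase, was lower (-1.51, SE 0.28, adjusted p = 0.00269). Sos1, a guanine nucleotide exchange factor, was also higher (0.92, adjusted p = 0.0163) and lies outside the naming rule. With single libraries left out, 0 (without paw IFE library 1) to 7 (without paw Merkel library 1) passed in paw, 4 to 7 in back and 6 to 10 over both sites. Over both sites Sos1 lost its call without paw IFE library 1 (0.0909) or back Merkel library 2 (0.0728). In back, Stat3, Braf and Hras passed in all 8 such fits. There Gab2 lost its call without back Merkel library 1 (0.0687) or back IFE library 2 (0.0739), and Pik3r1 without back Merkel library 2 (0.0693). Sos1 lost its back call without back Merkel library 2 or either back IFE library.

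Of 14 transcription targets 13 could be tested, with a median log2 fold change of -1.29 over both sites. Of these 2 passed over both sites, both lower in Merkel cells. The 2 of 13 are a smaller share than the 23.9% of all genes that passed over both sites. The count over both sites was 4 with DESeq2, with limma-trend, on log2 FPKM and with no filter, and it also changed when single libraries were left out. Of all genes, 3617 passed in the main fit, 5054 with DESeq2, 4126 with limma-trend and 4348 with no filter. On log2 FPKM 3899 and 3880 passed with pseudocounts of 1 and 0.1. Ccnd1, cyclin D1 of the G1 phase, had 31.2 and 17.4 CPM in paw Merkel cells, against 184 and 128 CPM in paw IFE cells. In back it had 29.4 and 17.8 CPM in Merkel cells, against 254 and 160 CPM in IFE cells. The Merkel libraries lay well below the IFE libraries at both sites (log2 fold change -2.90 over both sites, SE 0.34, adjusted p = 0.000128). Myc, a growth transcription factor, was lower as well (-3.11, SE 0.56, adjusted p = 0.00239), with 4.61 to 38.5 CPM in the Merkel libraries and 101 to 204 CPM in the IFE libraries.

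Egr1, an early response gene, had fold changes of opposite sign at the 2 sites. It had 1115 and 966 CPM in paw Merkel cells, against 395 and 525 CPM in paw IFE cells (log2 fold change 1.18, adjusted p = 0.041). In back it had 592 and 510 CPM in Merkel cells, against 977 and 1018 CPM in IFE cells (-0.86, adjusted p = 0.0752). The groups did not overlap at either site, but the test of the difference between the sites did not pass (difference 2.03, unadjusted p = 0.000517, adjusted p = 0.223), and the paw call was lost without either paw IFE library (0.350 and 0.133) or either back Merkel library (0.0646 and 0.0641). In back skin 3 targets were lower (1 without back Merkel library 1, and 1 to 4 over all fits with a library left out), Ccnd1 (-3.13, adjusted p = 0.00139), Myc (-3.28, adjusted p = 0.0186) and Ier2 (-2.71, adjusted p = 0.0189), the last an early response gene outside the naming rule. The back calls of Myc and Ier2 were lost without either back Merkel library (Myc 0.104 and 0.0518, Ier2 0.0643 and 0.106), and that of Ier2 also without either back IFE library (0.05 and 0.0593).

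**Figure D5:**
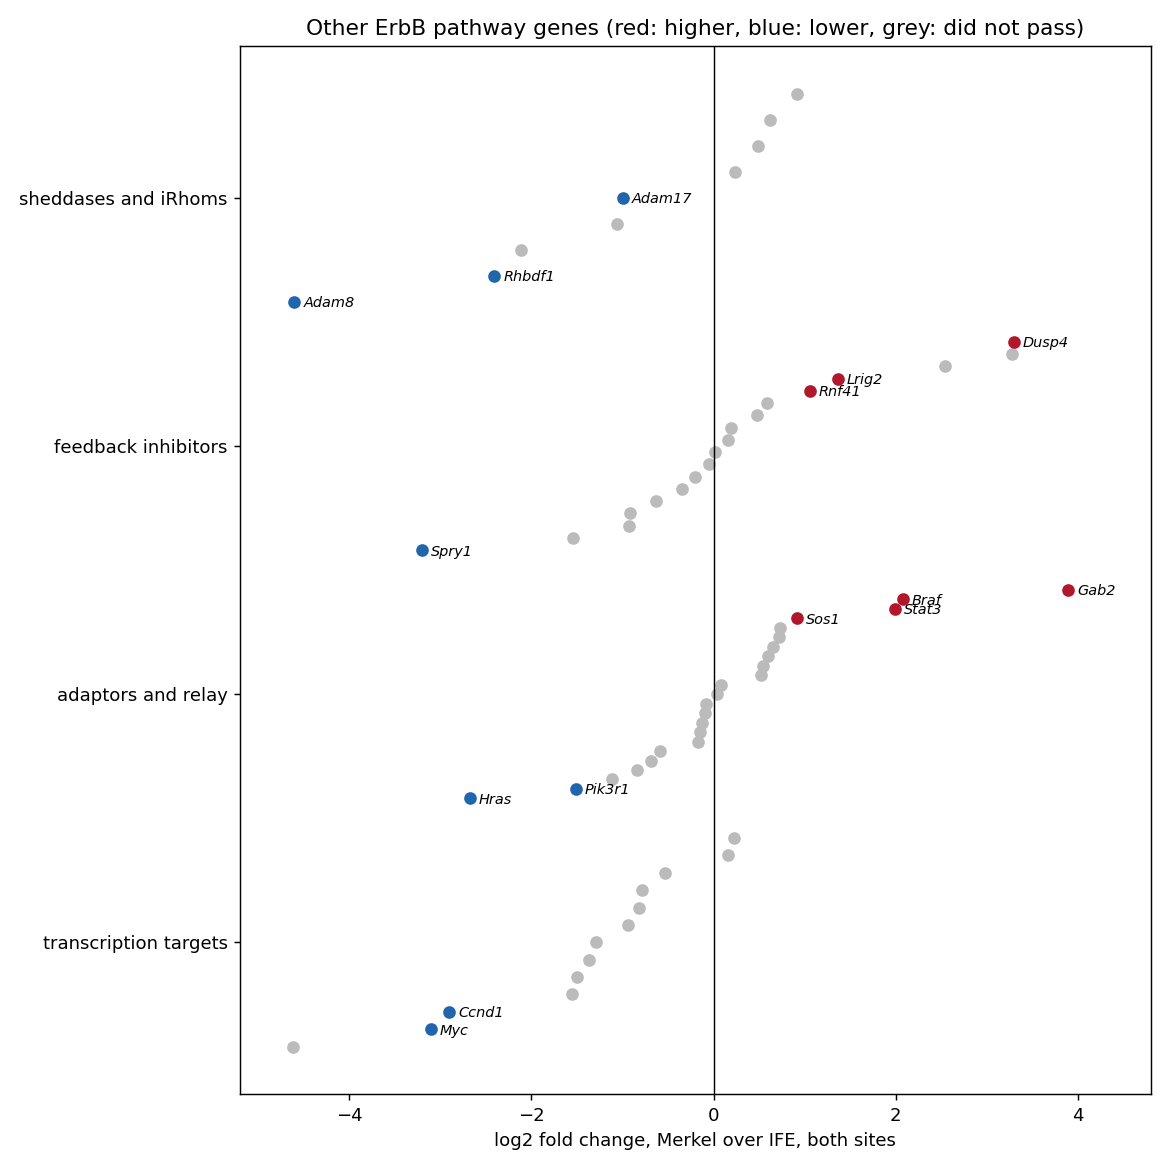
Log2 fold change of Merkel over IFE cells over both sites for tested sheddase, feedback, relay and target genes, with genes past an adjusted p of 0.05 named (red for higher, blue for lower) and others in grey. Points of each list are spread vertically by rank only, and the named genes run from Adam8 at -4.60 to Gab2 at 3.90.

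Each receptor was also set beside the genes whose profile over the 8 libraries was most like it. Likeness was the root mean square difference of centred log2 CPM values among 8620 genes with a mean of at least 10 CPM. Genes with Gm-number, Rik, LOC or -ps names were left out of this set. For Erbb4 the nearest were Miat (0.447), Nfasc (0.475) and Dach1 (0.487), where the median over the genes compared was 4.94. For Egfr they were Top2a (0.345), Ercc6l (0.402) and Npr3 (0.438), with a median of 2.23. For Erbb2 they were Ces2g (0.319), Sdc4 (0.349) and Bcl9l (0.359), with a median of 1.602. For Erbb3 they were Map3k11 (0.166), Sympk (0.244) and Samd4b (0.280), with a median of 1.18. Top2a encodes the DNA topoisomerase of dividing cells, Nfasc an adhesion protein of neurons and Sdc4 a membrane proteoglycan. These are descriptions over 8 libraries of 4 groups, without a test.

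Other cell types that express ErbB genes were followed by their markers. The melanocyte list summed to 127 to 215 CPM in Merkel libraries, with 3 to 7 of 8 genes detected, and to 8.56 to 16.8 CPM in IFE libraries, with 5 of 8 detected. Most of the Merkel sum was Kit, at 103 to 194 CPM, followed by Mitf, at 11.3 to 21.2 CPM in Merkel libraries and 2.89 to 11.2 CPM in IFE libraries. The pigment cell genes Pmel, at 0.293 to 5.70 CPM in Merkel libraries and 2.55 to 5.08 CPM in IFE libraries, and Dct, at 0 to 3.04 CPM and 0.0493 to 2.55 CPM, overlapped between the cell types. Sox10 reached 2.35 CPM, Tyr 0.989 CPM and Mlana 0.304 CPM in Merkel libraries, and Tyrp1 was at 0 in all 4. The Schwann cell list, with 3 to 5 of 7 genes detected in Merkel libraries and 3 to 4 of 7 in IFE libraries, summed to 27.0 to 49.1 CPM in Merkel libraries and 25.9 to 54.9 CPM in IFE libraries. Most of that was Mbp, and Cdh19 was at 0 in all 8 libraries. Their part in the Erbb4 level was not tested either. Fibroblast markers summed to 77.9 to 170 CPM in Merkel libraries and 92.6 to 435 CPM in IFE libraries, with 4 to 5 and 4 to 6 of 6 detected. Endothelial markers summed to 0.383 to 11.5 CPM in Merkel libraries and 1.53 to 3.89 CPM in IFE libraries, and the 4 globin genes of red cells had no counts in any library.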

How the data were processed

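RNA of sorted mouse skin cells was amplified from 10 ng and sequenced in paired ends, per the labels' protocols, in 8 libraries (2 in each of 4 groups). The authors deposited gene counts, whole numbers for 24538 genes, and FPKM values for 24453 genes, already scaled to transcript length and depth. Per the submitters' processing notes the build was mm10 and the tools were TopHat2 2.0.13, Cufflinks 2.2.1, featureCounts of Subread 1.4.6 and DESeq2 1.6.3; the annotation and strand setting are not given in the sources used here.

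From the deposited counts, filterByExpr by group kept 15151 genes, and edgeR 4.0.16 in R 4.3.3 scaled them by TMM and fitted 1 mean per group over the 8 libraries (4 residual degrees of freedom among samples). Quasi-likelihood F tests were adjusted by Benjamini-Hochberg over all genes tested, with a threshold of 0.05. SE is the log2 fold change divided by the square root of F. CPM use TMM library sizes and are comparable between libraries only; levels between genes use the deposited FPKM values. Total counts were 11139306 to 26195076, and amplified reads are not independent molecules. Alternatives used limma 3.58.1, DESeq2 1.42.0, RLE factors, no filter, a replicate block, FPKM with pseudocounts of 1 and 0.1, and single libraries left out. The fitting was tested on simulated data.

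Named genes were all members, the other ErbB ligands and up to 2 genes per pathway list and direction with the smallest adjusted p; 1 gene counted in the relay list is neither named nor drawn and is not reported here. Members and lists were chosen with earlier results of these data known. Gene positions are from GENCODE vM21 on GRCm38. Replicate numbers were not treated as pairs in the main fit. Correlations of same-numbered deviations between groups, over the genes tested, were -0.0427 to 0.0845. These values cannot decide whether same-numbered libraries share a source.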

Additional observations from a re-analysis of the deposited data

How the results depend on the processing

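Erbb4 stayed higher and Egfr and Erbb2 lower in Merkel cells over both sites, past the threshold, under every alternative run: Erbb4 at log2 fold changes of 4.45 to 10.78 (largest adjusted p 0.00225), Egfr at -4.37 to -3.34 (0.00616) and Erbb2 at -3.31 to -2.38 (0.00586). The number of family genes called in paw was 3, and became 5 with DESeq2 (adding Ereg and Hbegf), 4 with no filter on low counts and 2 on log2(FPKM + 1) with no filter, where Egfr missed the threshold (-3.16, adjusted p = 0.0672). Over both sites it was 3, and 6 with no filter and 6 with DESeq2 (adding Ereg, Nrg1 and Hbegf). Of all genes over both sites, 3617 passed in the main fit, 4348 with no filter and 5054 with DESeq2. Between paw and back Merkel cells the number of family genes called was 0, and 1 with no filter and 1 with DESeq2 (Egfr). With single libraries left out it ran from 2 to 5 in paw, 2 to 3 in back and 3 to 5 over both sites, and was 0 for the sites and the interaction. With the replicate number as a block the counts were 3, 3, 3, 0, 0 and 0, and of the family's calls the block cost only that of Egf in back.

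Over all genes, the 941 calls in paw became 1920 with no filter, 2364 with DESeq2, 537 in a fit of the 2 groups only and 441 on log2(FPKM + 1) with no filter, and 561 to 2369 with a library left out. The 2338 calls in back became 4190 with DESeq2 and 1307 when back Merkel library 2 was left out and 1555 when back IFE library 1 was. The 28 calls between Merkel sites became 452 with no filter, 625 with DESeq2, 5 in a fit of the 2 groups only, 13 and 12 on log2 FPKM with pseudocounts of 1 and 0.1, and 1 to 177 with a library left out. The 0 calls between IFE sites became 120 with no filter, 91 with DESeq2, 1 with the block, 1 to 8 on log2 FPKM and up to 67 with a library left out (back IFE library 2). The 0 of the interaction became 305 with no filter, 301 with DESeq2, 1 with RLE factors, 4 with the block, 2 on log2(FPKM + 1) and up to 41 with a library left out (back IFE library 2). No direction of a call reversed. The causes were not tested.

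Of the members' fold changes under alternatives, 892 kept their direction and their side of the threshold, 56 changed sign without a call on either side, 20 newly passed and 4 no longer passed. With 2 libraries a group, the 95% intervals of Areg, Btc, Ereg and Tgfa spanned several log2 units.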

Other observations

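Paw IFE library 2 held the highest counts of several ErbB ligands and early response genes among the 8 libraries, a set singled out after its values were seen. It had 147 counts of Areg, against 1 in paw IFE library 1, and 303 of Ereg, against 82. Epgn had 1039 counts in paw IFE library 2 and 96 in paw IFE library 1, and Hbegf had 1066 and 311. Fosl1, an AP-1 gene, had 178 counts in paw IFE library 2 and 0 to 3 in the other 7 libraries. Phlda1 had 488 counts in paw IFE library 2 and 39 in paw IFE library 1, and Ier3 had 2038 and 600. Other ligands and early response genes did not peak there. Tgfa had 203 counts in paw IFE library 2 and 264 in paw IFE library 1, Nrg4 45 and 127, and Fos 2638 and 4719. Egr1 had 10637 counts in paw IFE library 2 and 26680 in back IFE library 2, and Ier2 had 616 and 1315. Total counts were 20016954 in paw IFE library 2 and 23197142 in paw IFE library 1. Egfr and Erbb2 were close in these libraries, at 414 and 408 CPM for Egfr and 210 and 259 CPM for Erbb2.

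Paw Merkel library 2 had 0 counts of Areg, Btc, Ereg and Tgfa, against 12, 103, 8 and 110 in paw Merkel library 1, and no other library had 0 counts of any of these 4 genes. Its total count was 12292015, against 19300202 in paw Merkel library 1. Back Merkel library 2 had fewer counts than back Merkel library 1 for Areg (1 against 10), Ereg (1 against 24) and Tgfa (6 against 147). Btc went the other way there (113 against 7).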
